A study of Mus musculus with 6 samples.

Results

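The genes of the translation initiation factors were compared between mouse embryonic stem cells (ESCs) kept in 2 media, by RNA-seq of total RNA depleted of ribosomal RNA. They are the 57 genes, of 53927 gene symbols measured, whose symbol starts with Eif and a digit from 1 to 6, without pseudogene symbols and without the Y-linked Eif2s3y. Each medium was represented by 3 libraries of cells labelled as wild-type ESCs, grown in serum-free N2B27 on gelatin. In the group BRD0705/PD03 the medium held 8 µM BRD0705, which acts on GSK3 alpha, and 1 µM PD0325901, which acts on the kinase MEK. In the group 2i it held 3 µM CHIR99021, which acts on both GSK3 alpha and GSK3 beta, and again 1 µM PD0325901. The line is labelled E14, but the culture text speaks of B6D2F1 cells that had been derived on feeders in either medium, and the labels do not settle which cells were sequenced. If each medium had its own derived line, line and medium cannot be told apart.

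The libraries held from 16968959 to 51180228 counts. All 5 stem cell markers examined were detected in each library, with group means between 116 CPM for Zfp42 in 2i and 765 CPM for Pou5f1 in 2i, where CPM are counts scaled to a common library total. By the edgeR test used for all genes, 4 of the 5 differed: Nanog (324 against 625 CPM in 2i), Esrrb (279 against 435 CPM) and Pou5f1 (687 against 765 CPM) were lower in BRD0705/PD03 and Zfp42 (257 against 116 CPM) was higher, while Sox2 was not called. Their summed level ran from 1780.3 to 1867 CPM in BRD0705/PD03 and from 2177 to 2292 CPM in 2i. Of 22 fibroblast markers, 21 were higher in BRD0705/PD03 and none was lower. The exception was Fn1, at 798 ± 55.8 against 810 ± 15.9 CPM (SD, n = 3 per group). The summed level of the list ran from 2091 to 2742 CPM in BRD0705/PD03 and from 1569 to 1617 CPM in 2i, and no marker was at 0 in any library. The part of these marker differences in the results on initiation factors was not tested.

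Initiation on most mRNAs begins when eIF2, bound to GTP, brings the initiator tRNA to the small ribosomal subunit, where eIF1, eIF1A, eIF3 and eIF5 join it. The eIF4F complex binds the cap of the mRNA and opens its leader, the small subunit scans to the start codon, and eIF5B brings in the large subunit. The exchange factor eIF2B recharges eIF2 with GTP, stress kinases block that step by phosphorylating the alpha subunit of eIF2, and the eIF4E-binding proteins block assembly of eIF4F when the kinase mTOR is inactive. ESCs are known for a low rate of protein synthesis that rises as they differentiate.

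Most initiation factor genes differed little between the media, and a few differed by 2-fold or more. Of the 57 genes, 53 had enough counts to be tested, and 36 of these (67.9%) passed the edgeR quasi-likelihood test at a Benjamini-Hochberg adjusted p of 0.05, beside 61.4% of all 20422 genes tested, a share close to that background. Higher in BRD0705/PD03 were 13 genes, against a background of 30.1% of all genes, and lower were 23, against 31.4%. With upper-quartile scaling in place of TMM the split was 19 higher and 19 lower, beside 6967 and 5689 of all genes. Without 2i replicate 2 it was 18 and 20, beside 6004 and 5900 of all genes. In the main fit, all genes split into 6138 higher and 6406 lower. Of the 36 genes called, 20 moved by less than 1.2-fold. Only 6 of 53 (11.3%) were called and changed by 2-fold or more, beside 21.2% of all genes tested, and the median size of the log2 fold change was 0.17 among them and 0.40 among all genes. The median log2 fold change itself was -0.07, and 0.00030 over all genes tested. With upper-quartile scaling it turned to 1.01e-05, as that of all genes rose to 0.07. CPM of the 2 groups did not overlap for 38 of 53 genes (71.7%), beside 66.0% of all genes.

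Against a null of 1.5-fold in place of no change, 8 of 53 genes (15.1%) were called, beside 24.9% of all genes tested. Eif4g3 and Eif4e3 were higher, and Eif3j1, Eif2b5, Eif2s2, Eif2s3x, Eif1ax and Eif4e2 were lower. Together all 57 genes took 13499 ± 308 CPM in BRD0705/PD03 and 15109 ± 351 CPM in 2i (SD, n = 3 per group), and the libraries of the groups did not overlap in that sum. The difference was uneven by role. Genes of eIF2 and other tRNA carriers summed to 1420 against 2433 CPM, and those of eIF4F and helpers to 5453 CPM in both groups. Genes of joining, elongation and ribosome factors summed to 884 against 790 CPM. The genes Eif2c5, Eif4a3l1, Eif4a3l2 and Eif4e1b did not pass the filter on low counts, with 0 to 8 counts per library. Eif2c5 is a noncoding RNA gene of the X chromosome in the annotation and no initiation factor, and Eif4e1b encodes an oocyte form of the cap-binding protein.

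**Figure D1:**
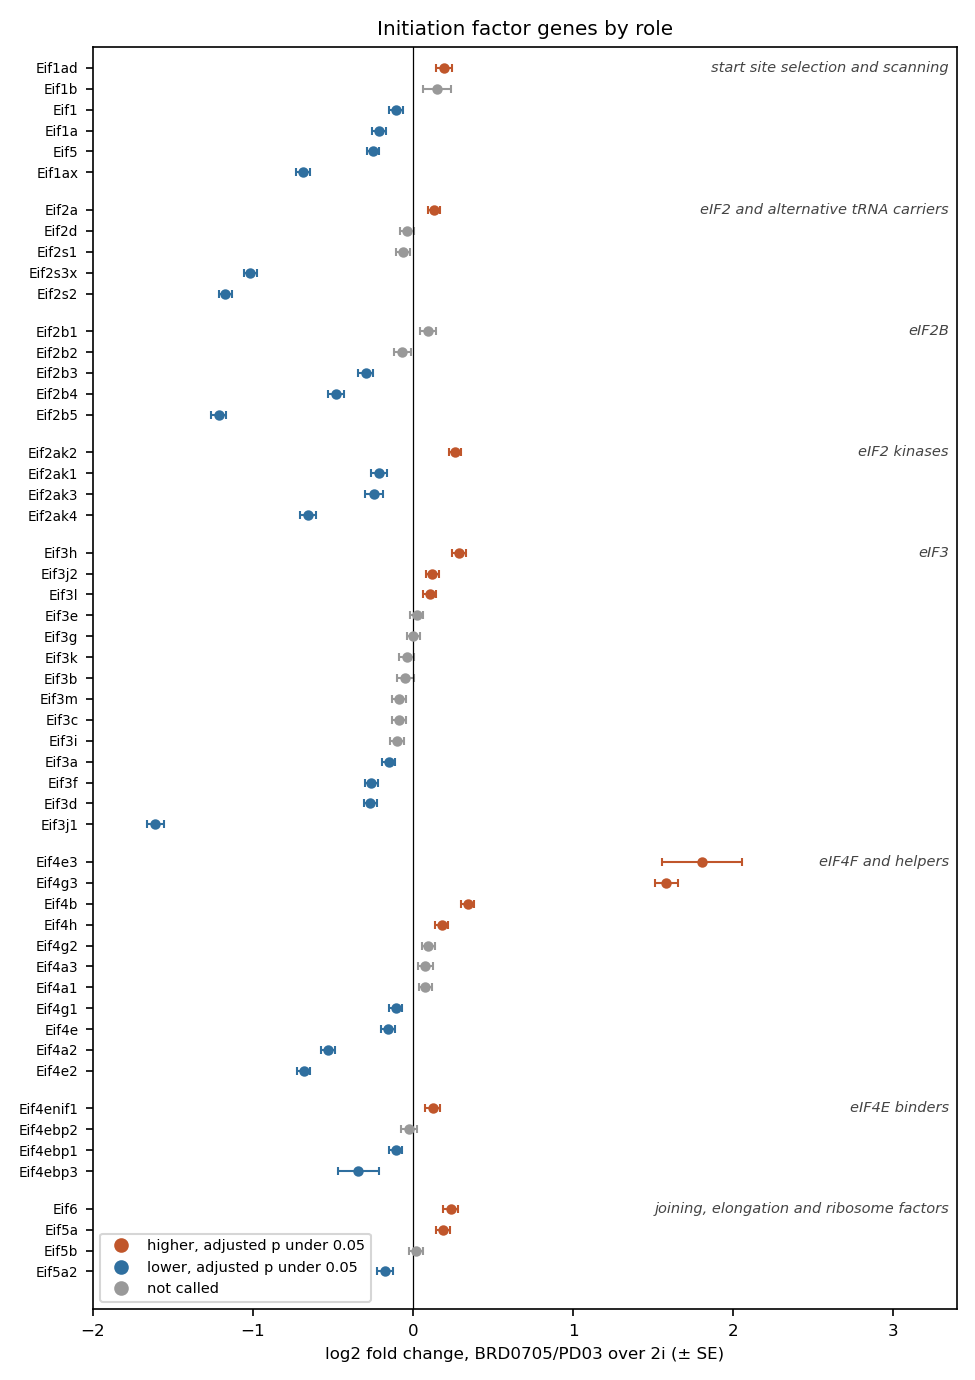
Log2 fold change of BRD0705/PD03 over 2i with its standard error for the 53 initiation factor genes tested, grouped by role, with the genes called higher in red, lower in blue and not called in grey. Most points lie close to 0, while Eif3j1 (-1.61), Eif2b5 (-1.22), Eif2s2 (-1.17) and Eif2s3x (-1.02) lie far to the left and Eif4g3 (1.58) and Eif4e3 (1.81) far to the right.

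The stretches of DNA just before the starts of the 3 genes with the lowest log2 fold changes are shown as a description. The genes were chosen by those values, so that all 3 were lower follows from the choice, and shared control was not tested. The value of Eif3j1 alone is uncertain, since reads can be split between it and its near-identical paralog Eif3j2, and the log2 fold change of their sum was -0.38. They are the parts of the RefSeq promoter windows (GRCm38.p6) that lie before the annotated gene, at chr2:122028330-122028545 on the plus strand for Eif3j1, chr16:20498567-20498816 on the plus strand for Eif2b5 and chr2:154892936-154893156 on the minus strand for Eif2s2. Capitals mark a CCAAT box, which only the Eif2b5 stretch held among the motifs searched.
Eif3j1: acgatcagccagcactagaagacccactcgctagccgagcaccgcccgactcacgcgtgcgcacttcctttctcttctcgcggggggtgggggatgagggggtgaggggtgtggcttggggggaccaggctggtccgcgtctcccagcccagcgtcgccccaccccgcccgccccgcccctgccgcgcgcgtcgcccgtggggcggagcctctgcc
Eif2b5: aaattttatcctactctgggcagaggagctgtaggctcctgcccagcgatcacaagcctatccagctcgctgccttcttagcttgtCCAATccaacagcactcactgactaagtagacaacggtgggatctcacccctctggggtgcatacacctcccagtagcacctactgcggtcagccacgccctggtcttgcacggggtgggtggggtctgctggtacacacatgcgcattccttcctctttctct
Eif2s2: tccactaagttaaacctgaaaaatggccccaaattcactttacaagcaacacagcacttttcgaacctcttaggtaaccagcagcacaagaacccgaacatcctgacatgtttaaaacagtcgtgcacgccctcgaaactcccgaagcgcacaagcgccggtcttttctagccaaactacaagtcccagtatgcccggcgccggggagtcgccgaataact

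Motifs were counted on both strands in whole RefSeq windows of 300 bases, from 250 bases before to 50 after the start, which matched 42 of the 53 genes tested. The E-box CACGTG, the letters bound by Myc and its relatives, stood in 10 of the 42 windows (23.8%), in 11.1% of the windows of 12655 tested genes and in 8.09% of all 27025 windows. Of those 10 genes, 2 were called higher (Eif4h and Eif5a) and 5 lower (Eif3a, Eif3f, Eif4e, Eif4g1 and Eif5a2), and Eif1b, Eif3k and Eif4a1 were not called. Of all genes tested, 30.1% were called higher and 31.4% lower, so calls among 10 genes say little about the motif. The ETS letters CCGGAAG stood in 16 of 42 windows (38.1%), beside 17.6% of the windows of tested genes and 9.93% of all windows, and CCAAT in 15 of 42 (35.7%), beside 43% and 41.1%. No window of an initiation factor gene held the CRE letters TGACGTCA, the ATF4 composite letters TGATGNAAT or the TCF/LEF letters ATCAAAG, which stood in 3.26%, 0.672% and 3.3% of the windows of tested genes. A match of letters is a description and no evidence of binding, and the motifs can share bases.

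The genes of the eIF2 complex, which carries the initiator tRNA, did not move as a unit. Those of its beta subunit and, on the X chromosome, its gamma subunit fell by about 2-fold. The gene of its alpha subunit was not called, and the Y-linked gene of the gamma subunit, given below, was higher. Eif2s2, which encodes the beta subunit that eIF5 contacts and lies at chr2:154871410-154892935 (minus strand, GRCm38), had 494, 507 and 517 CPM in BRD0705/PD03 and 1125, 1172 and 1124 CPM in 2i. All 3 libraries of BRD0705/PD03 were under all 3 of 2i, and the log2 fold change was -1.17 ± 0.04 (SE; edgeR adjusted p = 1.23e-14). Eif2s3x, which encodes the gamma subunit that binds GTP and the tRNA and lies at chrX:94188707-94212862, had 357, 383 and 366 CPM against 746, 750.2 and 742 CPM. Here too the groups were apart, with a log2 fold change of -1.02 ± 0.04 (edgeR adjusted p = 9.40e-14). Eif2s1, which encodes the alpha subunit that stress kinases phosphorylate, had 295, 307 and 301 CPM against 310.3, 329 and 302 CPM. Its groups overlapped, and its log2 fold change was -0.06 ± 0.04 (edgeR adjusted p = 0.212) and 0.0036 with upper-quartile scaling. In bulk RNA, less transcript in each cell and fewer cells that hold it cannot be told apart.

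Other carriers of the initiator tRNA differed little. Eif2a, whose product can bring that tRNA to some mRNAs without GTP, had 153 ± 2.27 against 139 ± 3.504 CPM and rose with a log2 fold change of 0.13 ± 0.04 (edgeR adjusted p = 0.0066). It overlaps Serp1 on the opposite strand, which fell with a log2 fold change of -0.36, and no source used here gives the strand setting of the counts. Eif2d, which encodes a related carrier, had 90.8 ± 2.64 against 93.2 ± 4.22 CPM and was not called (edgeR adjusted p = 0.48). The summed level of these 5 genes was 1420 ± 30.2 CPM in BRD0705/PD03 and 2433 ± 50.8 CPM in 2i.

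Eif2s3x has a paralog on the Y chromosome, Eif2s3y, which encodes the same subunit. Eif2s3y had 105, 111 and 109 CPM in BRD0705/PD03 and 1.48, 0.898 and 1.11 CPM in 2i. The Y-linked copy was thus at or under 1.48 CPM in all 3 libraries of 2i and above 100 CPM in all 3 of BRD0705/PD03, opposite to its X-linked partner. Their sum was 477 ± 15.9 against 747 ± 4.10 CPM, and with both counts added into 1 gene the log2 fold change was -0.65 ± 0.04 (edgeR adjusted p = 6.31e-11). X-linked genes as a whole were lower in BRD0705/PD03: of 566 X-linked genes that averaged 1 CPM or more, 410 (72.4%) were called lower, with a median log2 fold change of -0.80 over the 566. The sex chromosome content of the cells and the medium cannot be told apart here.

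The coding sequences of the paralogs matched at 86.3% of 1419 aligned bases, with 194 mismatches. Their first 90 coding bases are shown, from GENCODE M21 transcripts on GRCm38, to let a reader see how far the copies can be told apart by short reads. Capitals mark the 16 bases that differ.
Eif2s3x: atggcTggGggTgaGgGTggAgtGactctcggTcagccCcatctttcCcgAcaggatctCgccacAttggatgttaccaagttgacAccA
Eif2s3y: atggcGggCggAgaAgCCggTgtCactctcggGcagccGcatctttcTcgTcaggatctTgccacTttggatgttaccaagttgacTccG

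The eIF2B complex, which recharges eIF2 with GTP, had 3 of its 5 genes lower and none higher, a called share (60%) like that of all genes tested (61.4%). Eif2b5, which encodes the catalytic epsilon subunit and lies at chr16:20498817-20509323 on the plus strand, had 169, 189.5 and 182 CPM in BRD0705/PD03 and 425, 434 and 396 CPM in 2i. All libraries of BRD0705/PD03 were under all of 2i, with a log2 fold change of -1.22 ± 0.05 (edgeR adjusted p = 1.96e-13). Eif2b4, which encodes the delta subunit, had 38.9, 41.0 and 40.2 against 57.4, 57.7 and 52.3 CPM and fell by 0.48 ± 0.05 on the log2 scale (edgeR adjusted p = 1.58e-07). Eif2b3, which encodes the gamma subunit that works with epsilon, had 40.0, 39.7 and 42.0 against 49.97, 51.0 and 48.5 CPM and fell by 0.30 ± 0.05 (edgeR adjusted p = 3.15e-05). In both of these genes the groups were apart, at a much smaller distance than in Eif2b5.

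The regulatory subunits alpha, beta and delta sense phosphorylated eIF2. The genes of alpha and beta were not called, while that of delta, Eif2b4, was lower as given above. Eif2b1, for alpha, had 73.4, 73.8 and 75.6 against 72.3, 73.1 and 63.3 CPM, with an edgeR adjusted p of 0.128 (0.0213 without 2i replicate 2). Eif2b2, for beta, had 34.3 ± 1.16 against 35.9 ± 1.36 CPM, with an edgeR adjusted p of 0.308. The 5 genes summed to 369 ± 13.3 CPM in BRD0705/PD03 and 629 ± 30.7 CPM in 2i.

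Per kilobase of merged exons, the levels of the eIF2 subunits in 2i were 63.4 ± 2.85 CPM per kb for Eif2s1, 169 ± 4.07 for Eif2s2 and 196 ± 1.10 for Eif2s3x. In BRD0705/PD03 the levels were 60.8 ± 1.15, 74.9 ± 1.66 and 96.7 ± 3.44 CPM per kb. The 3 subunits kept the same order in both media, and the spread between the lowest and the highest was smaller in BRD0705/PD03. With the length of the longest protein-coding transcript instead, Eif2s2 came first in both media, at 199 ± 4.41 CPM per kb in BRD0705/PD03 and 449 ± 10.81 in 2i, so the order of the subunits depends on the length used. Of the eIF2B subunits, Eif2b5 stood at 69.4 ± 4.03 against 161 ± 7.59 CPM per kb of merged exons, above the other 4 in both media. Eif2b1 came next, at 28.8 ± 0.448 against 26.9 ± 2.11 CPM per kb, and Eif2b3 last, at 6.22 ± 0.192 against 7.64 ± 0.199.

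**Figure D2:**
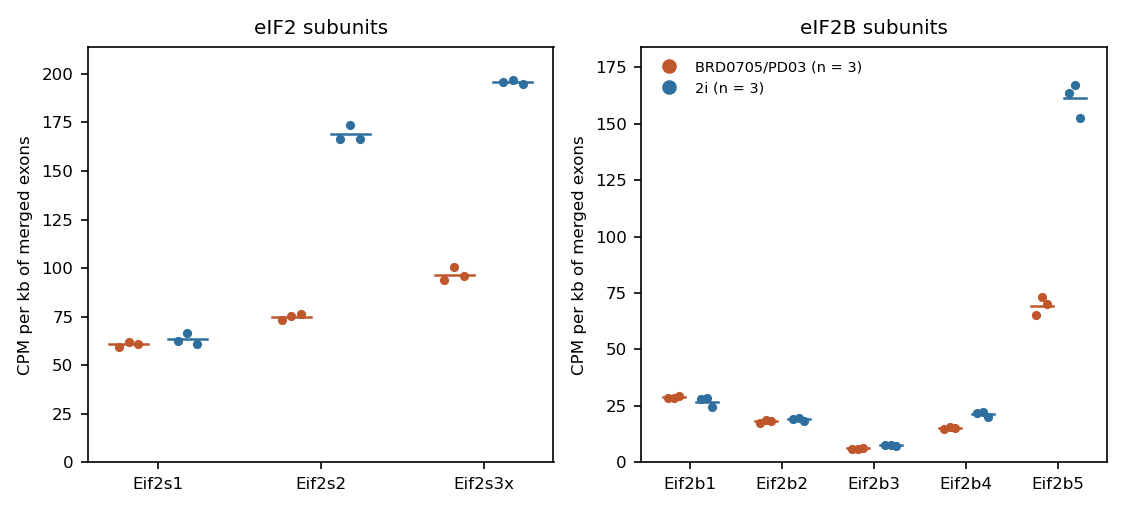
Level per library, in CPM per kb of merged exons, of the genes for the eIF2 subunits (left) and the eIF2B subunits (right), with the group mean as a line. Eif2s2, Eif2s3x and Eif2b5 are lower in every BRD0705/PD03 library than in any 2i library, while the groups of Eif2s1 overlap.

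All 4 genes of the eIF2 kinases were called, 1 higher and 3 lower, where 61.4% of all genes tested were called, so a count over 4 genes says little about the kinases as a group. Eif2ak4, which encodes GCN2, the kinase that senses uncharged tRNA, had 36.2, 39.6 and 37.0 CPM in BRD0705/PD03 and 58.6, 59.8 and 59.2 CPM in 2i. The groups were far apart relative to their spread, with a log2 fold change of -0.66 ± 0.05 (edgeR adjusted p = 9.97e-10). Eif2ak2, which encodes PKR, the kinase that binds double-stranded RNA, had 129, 132 and 131 against 111, 106 and 109 CPM. It was the kinase gene that rose, with a log2 fold change of 0.26 ± 0.04 (edgeR adjusted p = 1.09e-05).

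The kinases of heme shortage and of the endoplasmic reticulum fell slightly. Eif2ak1, which encodes HRI, had 33.8, 34.4 and 35.1 against 38.7, 41.6 and 38.8 CPM, a log2 fold change of -0.21 ± 0.05 (edgeR adjusted p = 0.00169). Eif2ak3, which encodes PERK, had 32.9, 35.7 and 33.5 against 37.7, 40.4 and 42.6 CPM, a log2 fold change of -0.24 ± 0.06 (edgeR adjusted p = 9.65e-04). The groups did not overlap in either gene, and the summed level of the 4 kinases was 237 ± 4.85 against 248 ± 1.71 CPM.

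Among the genes of start site selection and scanning, 4 of 6 were lower and 1 higher, beside 31.4% and 30.1% of all genes tested. Eif1ax, the X-linked gene of eIF1A at chrX:159372178-159389928, had 133, 148 and 141 CPM in BRD0705/PD03 and 224, 235 and 222 CPM in 2i. Its groups were apart, with a log2 fold change of -0.69 ± 0.04 (edgeR adjusted p = 1.09e-10), beside the median of -0.80 over X-linked genes. Eif1a, the autosomal gene of the same factor, had 302 ± 14.1 against 349 ± 6.09 CPM and fell by 0.21 ± 0.04 on the log2 scale (edgeR adjusted p = 2.34e-04). Eif5, which encodes the protein that makes eIF2 hydrolyse its GTP, had 354 ± 8.74 against 421 ± 9.64 CPM and fell by 0.25 ± 0.04 (edgeR adjusted p = 2.00e-05).

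The other 3 genes of the group changed less. Eif1ad, which encodes a protein with an eIF1A domain, had 76.6 ± 0.825 against 66.9 ± 4.16 CPM and rose with a log2 fold change of 0.19 ± 0.05 (edgeR adjusted p = 0.00188). Eif1, which encodes the factor that guards against wrong start codons, had 94.0 ± 0.651 against 101 ± 4.90 CPM and a log2 fold change of -0.11 ± 0.04 (edgeR adjusted p = 0.0413). That call was lost with any 1 library left out except 2i replicate 3, at edgeR adjusted p from 0.0828 without BRD0705/PD03 replicate 2 to 0.343 without 2i replicate 2. Its paralog Eif1b, at 13.7 ± 0.494 against 12.3 ± 1.49 CPM, was not called (edgeR adjusted p = 0.157, and 0.0208 without 2i replicate 2).

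The 14 genes of eIF3, the scaffold that holds the small subunit, the tRNA complex and eIF4F together, were mostly level, and 1 stood apart. Eif3j1, at chr2:122028546-122056598 on the plus strand, encodes a loosely bound subunit that sits near the mRNA channel of the small subunit. It had 20.4, 20.2 and 19.96 CPM in BRD0705/PD03 and 60.1, 63.5 and 60.8 CPM in 2i. The libraries within a group were almost equal, and the level was 3.05-fold lower in BRD0705/PD03, a log2 fold change of -1.61 ± 0.05 (edgeR adjusted p = 3.10e-15). This was the lowest value of all 53 genes tested.

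Eif3j2, a second gene for the same subunit, had 91.8, 92.3 and 93.0 against 83.9, 86.9 and 83.6 CPM and rose with a log2 fold change of 0.12 ± 0.04 (edgeR adjusted p = 0.0139). The coding sequences of Eif3j1 and Eif3j2 differ at 2 of 786 aligned bases, so estimated counts can be split between them, and each value alone is uncertain. Their sum was 113 ± 0.399 CPM in BRD0705/PD03 and 146 ± 3.602 CPM in 2i. With the counts of both added into 1 gene, the log2 fold change was -0.38 ± 0.04 (edgeR adjusted p = 9.30e-08), a fall much smaller than that of Eif3j1 alone.

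Of the 12 other eIF3 genes, 3 fell, 2 rose and 7 were not called, and over all 14 the called share was 50% beside 61.4% of all genes tested. Eif3d, whose product can bind the cap of some mRNAs, fell by 0.27 ± 0.04 on the log2 scale, from 330.4 ± 11.6 CPM in 2i to 275 ± 6.59 CPM. Eif3f fell by 0.26 ± 0.04, from 152 ± 6.57 to 127 ± 1.27 CPM, and Eif3a, the largest core subunit, fell by 0.15 ± 0.04, from 898 ± 8.09 to 809 ± 36.4 CPM. The gene that rose most was Eif3h, with 164, 169 and 172 CPM in BRD0705/PD03 and 137, 146 and 129.8 CPM in 2i, where all libraries of BRD0705/PD03 were above all of 2i. Its log2 fold change was 0.29 ± 0.05 (edgeR adjusted p = 2.17e-05).

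Eif3l rose with a log2 fold change of 0.10 ± 0.04 (472 ± 14.7 against 439 ± 18.05 CPM; edgeR adjusted p = 0.0411). Its call was lost without BRD0705/PD03 replicate 2 (edgeR adjusted p = 0.178), BRD0705/PD03 replicate 3 (0.0698) or 2i replicate 3 (0.0639). The 7 genes not called, Eif3b, Eif3c, Eif3e, Eif3g, Eif3i, Eif3k and Eif3m, had log2 fold changes from -0.10 in Eif3i to 0.02 in Eif3e, and the values of Eif3b, Eif3g and Eif3k changed sign with a library left out or another scaling. Without 2i replicate 3, Eif3c (edgeR adjusted p = 0.0177), Eif3i (0.0035) and Eif3m (0.0144) were called lower. The summed level of the 14 genes was 3823 ± 107 against 4032 ± 142 CPM, and the groups overlapped in it. Per kilobase of merged exons, eIF3 genes ranged in BRD0705/PD03 from 3.46 ± 0.0349 CPM per kb for Eif3j1 to 157 ± 7.13 for Eif3c, and in 2i from 10.5 ± 0.306 to 167 ± 5.74 for the same genes.

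In eIF4F, the cap-binding complex, the scaffold gene Eif4g3 rose while the more abundant scaffold gene Eif4g1 fell slightly. Eif4g3, at chr4:137993022-138208508 on the plus strand, had 58.4, 61.2 and 59.3 CPM in BRD0705/PD03 and 21.8, 20.8 and 17.1 CPM in 2i. The groups were far apart, and the level was 3.00-fold higher in BRD0705/PD03, a log2 fold change of 1.58 ± 0.07 (edgeR adjusted p = 2.39e-11). Eif4g1 had 740.5, 779.9 and 756 against 825, 808 and 823 CPM, a log2 fold change of -0.11 ± 0.04 (edgeR adjusted p = 0.0226). That call was lost without BRD0705/PD03 replicate 1 (edgeR adjusted p = 0.0548), BRD0705/PD03 replicate 3 (0.0965) or 2i replicate 1 (0.0738). Eif4g2, whose product lacks the site for eIF4E, had 939 ± 32.2 against 878 ± 25.2 CPM and was not called (edgeR adjusted p = 0.0542), but was called higher without BRD0705/PD03 replicate 1 (0.012), 2i replicate 2 (0.00531) or 2i replicate 3 (0.0337). It was also called higher with median-ratio factors (edgeR adjusted p = 0.0478), upper-quartile factors (3.70e-04), other filters and DESeq2 (DESeq2 adjusted p = 0.0373), so its call depends on the setting.

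Of the genes of cap-binding proteins, Eif4e, for the main one, fell by 0.16 ± 0.04 on the log2 scale, from 179 ± 7.28 CPM in 2i to 160.3 ± 4.90 CPM (edgeR adjusted p = 0.00356). Eif4e2, whose product binds the cap without eIF4G and represses translation, had 120.1, 128 and 129 CPM in BRD0705/PD03 and 203, 207 and 195 CPM in 2i. It fell further than Eif4e, by 0.68 ± 0.04 (edgeR adjusted p = 5.76e-11), with no overlap of the groups. Eif4e3, for another cap-binding protein, had the highest log2 fold change of the 53 genes, 1.81 ± 0.25 (edgeR adjusted p = 4.34e-06), at a level of only 1.51, 2.22 and 1.86 against 0.415, 0.539 and 0.592 CPM, or 49, 61 and 76 against 7, 27 and 15 counts.

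The helicase genes also diverged. Eif4a2 had 591, 587 and 579 CPM in BRD0705/PD03 and 866, 793 and 880.1 CPM in 2i. It fell by 0.53 ± 0.04 on the log2 scale (edgeR adjusted p = 4.63e-09), with the groups apart, and Rfc4, which overlaps it on the opposite strand, rose with a log2 fold change of 0.32. Eif4a1, for the main helicase of eIF4F, had 1327, 1386 and 1353 against 1283, 1327 and 1246 CPM. Its groups just missed each other and its log2 fold change of 0.08 ± 0.04 was not called (edgeR adjusted p = 0.121), but was called without 2i replicate 2 (0.0117). Eif4a3, for the related helicase of the exon junction complex, had 191 ± 5.76 against 181 ± 12.3 CPM and was not called (edgeR adjusted p = 0.168, and 0.00455 without 2i replicate 2).

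Both genes of helicase helpers rose. Eif4b had 867, 915 and 875 CPM in BRD0705/PD03 and 696, 717 and 682 CPM in 2i, a log2 fold change of 0.34 ± 0.04 (edgeR adjusted p = 6.64e-07). Eif4h had 390.3 ± 9.73 against 344 ± 9.29 CPM, a log2 fold change of 0.18 ± 0.04 (edgeR adjusted p = 6.70e-04). The libraries of the groups did not overlap for either gene. The summed level of the genes grouped here as eIF4F and helpers, with Eif4a3, Eif4e2 and Eif4g2 among them, was 5453 ± 122 CPM in BRD0705/PD03. In 2i it was 5453 ± 57.7 CPM, equal within the spread between libraries. Of the 11 genes of the group tested, 8 (72.7%) were called, beside 61.4% of all genes tested.

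**Figure D3:**
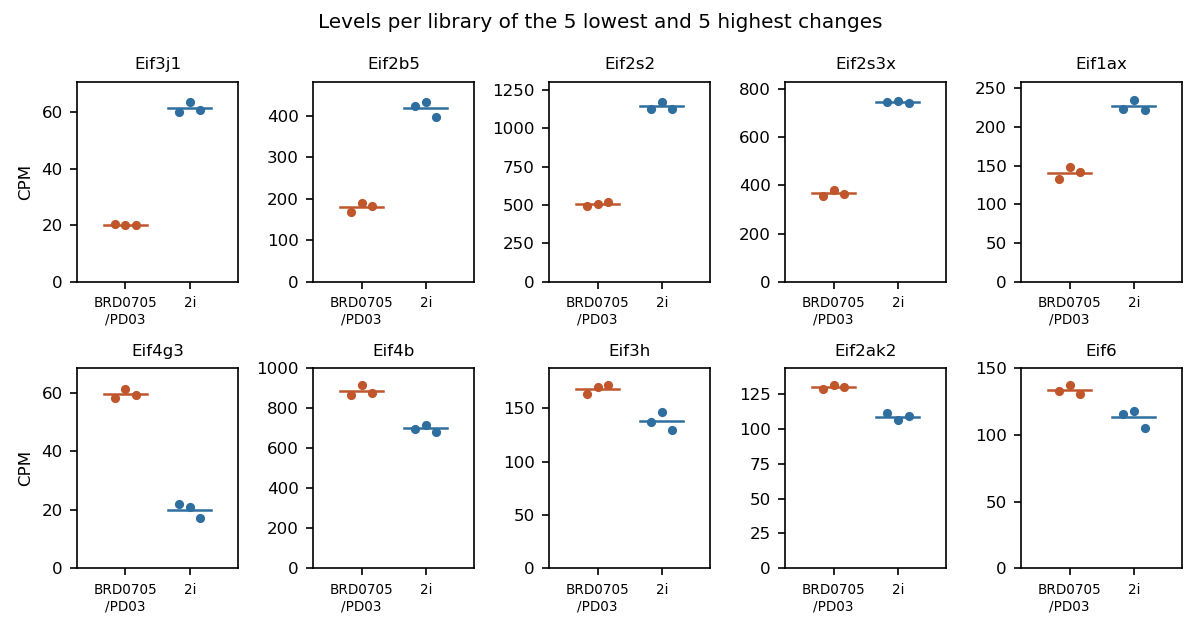
CPM in each of the 3 libraries per group, with the group mean as a line, for the 5 lowest (top) and 5 highest (bottom) log2 fold changes among called genes that averaged 5 CPM or more. The groups are separate in all 10 genes, most widely in Eif3j1 (20.2 against 61.5 CPM) and Eif4g3 (59.6 against 19.9 CPM). The genes were chosen by these values, so their separation follows from the choice, and 66.0% of all genes tested did not overlap. The level of Eif3j1 alone is uncertain, since estimated counts can be split between it and Eif3j2.

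The genes of the eIF4E-binding proteins, which keep eIF4E from eIF4G until mTOR phosphorylates them, differed little. Eif4ebp1 had 204, 204 and 205 CPM in BRD0705/PD03 and 223, 228 and 209 CPM in 2i, with a log2 fold change of -0.11 ± 0.04 (edgeR adjusted p = 0.0277). The groups were apart, but the call was lost without BRD0705/PD03 replicate 2 or 3 or 2i replicate 1 or 2, at edgeR adjusted p from 0.0689 to 0.181. Eif4ebp2 had 67.3, 68.0 and 67.9 against 62.8, 71.6 and 71.8 CPM, overlapped between the groups and was not called (log2 fold change -0.03 ± 0.05, edgeR adjusted p = 0.666; the sign turned with upper-quartile scaling).

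Eif4ebp3 was the least abundant of the binding protein genes, with 3.88, 3.45 and 4.39 against 4.87, 4.99 and 5.09 CPM and a log2 fold change of -0.34 ± 0.13 (edgeR adjusted p = 0.0268). The call was lost with any 1 library left out except BRD0705/PD03 replicate 3, at edgeR adjusted p from 0.0509 to 0.117. Eif4enif1, whose product carries eIF4E into the nucleus, rose with a log2 fold change of 0.12 ± 0.04 (57.3 ± 1.11 against 52.7 ± 0.630 CPM; edgeR adjusted p = 0.0232). That call was lost without BRD0705/PD03 replicate 2 (0.0502) or replicate 3 (0.0976).

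Among the 4 genes of subunit joining, elongation and ribosome factors, 2 rose and 1 fell, a called share of 75% beside 61.4% of all genes tested. Eif6, whose product keeps the large subunit from joining too early, had 133, 138 and 130.5 CPM in BRD0705/PD03 and 116, 118 and 106 CPM in 2i. The groups were apart, with a log2 fold change of 0.24 ± 0.05 (edgeR adjusted p = 2.04e-04). Eif5a, whose product carries the amino acid hypusine and helps elongation, rose with a log2 fold change of 0.19 ± 0.04 (634 ± 8.92 against 557 ± 30.0 CPM; edgeR adjusted p = 0.00103). Its paralog Eif5a2 fell by 0.17 ± 0.05 on the log2 scale (36.8 ± 1.64 against 41.6 ± 0.331 CPM; edgeR adjusted p = 0.00617; DESeq2 adjusted p = 0.0516). Eif5b, for the joining factor, had 79.0 ± 1.52 against 77.9 ± 2.10 CPM and was not called, and the opposite strand of its locus holds Rev1, which rose with a log2 fold change of 0.36.

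Per kilobase of merged exons, Eif4a1 was the highest of the initiation factor genes, at 313 ± 6.87 CPM per kb in BRD0705/PD03 and 296 ± 9.33 in 2i, and Eif5a was next, at 267 ± 3.75 and 234.3 ± 12.6. Eif4b held the next place in BRD0705/PD03, at 198 ± 5.75 CPM per kb, and Eif2s3x held it in 2i, at 196 ± 1.10. Of the 53 genes tested, Eif4e3 was last in both groups, at 0.741 ± 0.140 and 0.205 ± 0.0360 CPM per kb. Eif4g3 was among the lowest as well, at 5.39 ± 0.130 and 1.80 ± 0.226 CPM per kb. Eif2b5 stood at place 21 in BRD0705/PD03 and at place 6 in 2i, and Eif2s2 at place 18 and at place 4. These places depend on the length used. With the longest protein-coding transcript instead, Eif4a1 stayed first in both groups. In 2i, Eif2s2 (449 ± 10.81 CPM per kb) then stood above Eif5a (388 ± 20.9), and Eif4a2 (313 ± 17.2) above Eif2s3x (205 ± 1.15).

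The balance between related genes was compared as the log2 ratio of their CPM in each library, for 11 pairs of paralogs, subunits or a factor and its inhibitor. With 3 libraries against 3, the smallest p that the exact two-sided permutation test can give is 0.1, so no pair could pass a threshold of 0.05. In 9 of the 11 pairs the libraries of the groups did not overlap, each at that smallest exact p and at 0.122 after Benjamini-Hochberg adjustment over the 11. For single genes, CPM of the groups did not overlap in 66.0% of all genes tested, and no such share was taken over other pairs. The 2 largest differences were those of Eif3j1 over Eif3j2, with a mean log2 ratio of -2.19 ± 0.0239 in BRD0705/PD03 and -0.46 ± 0.0139 in 2i, and of Eif4g1 over Eif4g3, at 3.67 ± 0.00385 and 5.36 ± 0.191. In each of these pairs the second gene held a larger share of the counts in BRD0705/PD03. For Eif3j1 and Eif3j2 that share is uncertain, since estimated counts can be split between these near-identical genes.

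Eif2s1 over Eif2s3x stood at -0.29 ± 0.0243 against -1.25 ± 0.0564, a difference of 0.96 in favour of the alpha subunit gene in BRD0705/PD03. This ratio leaves out the Y-linked Eif2s3y, which encodes the same gamma subunit. With Eif2s3y added, the gamma subunit genes stood at 477 against 747 CPM, a smaller fall than that of Eif2s3x alone (369 against 746 CPM). Over X-linked genes the median log2 fold change was -0.80. Eif4a1 over Eif4a2 differed by 0.61, Eif4e over Eif4e2 by 0.53, Eif1a over Eif1ax by 0.48 and Eif5a over Eif5a2 by 0.36, so in each of these 4 pairs the first gene held a larger share in BRD0705/PD03. Eif1 over Eif1b differed by -0.27 and Eif4g1 over Eif4g2 by -0.21. The pairs with overlapping groups were Eif4e over Eif4ebp1, which differed by -0.05 (exact permutation p = 0.2, adjusted 0.22), and Eif4ebp1 over Eif4ebp2, which differed by -0.09 (exact permutation p = 0.4, adjusted 0.4).

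**Figure D4:**
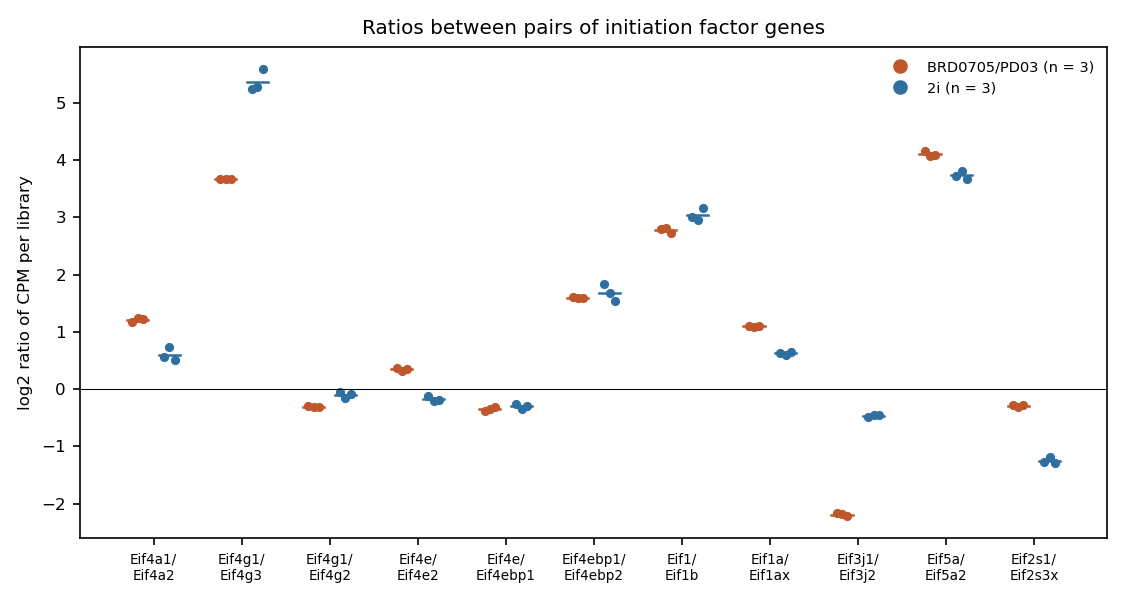
Log2 ratio of CPM in each library for 11 pairs of initiation factor genes, with the group mean as a line. The groups are separate in 9 pairs and overlap in Eif4e/Eif4ebp1 and Eif4ebp1/Eif4ebp2, and the gap is widest in Eif3j1/Eif3j2 (-1.73) and Eif4g1/Eif4g3 (-1.70). The ratio of the near-identical Eif3j1 and Eif3j2 is uncertain, since estimated counts can be split between them.

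Several initiation factor genes have near-identical copies elsewhere in the genome, among which estimated counts can be split. Copies with at least 90% identity over at least 300 bases were found for 21 of the 57 genes, and they mattered most for Eif4a1, Eif2s3x and Eif3e, besides Eif3j1. Eif4a-ps4, on chromosome 1, differs from the coding sequence of Eif4a1 at 1 of 1218 bases and was listed at 567, 581 and 614 CPM in BRD0705/PD03 and 513, 516 and 457 CPM in 2i. With the copies added, Eif4a1 was called higher, with a log2 fold change of 0.13 ± 0.04 (edgeR adjusted p = 0.018). Gm2223, on the X chromosome, matches Eif2s3x at all of 1350 bases and was listed at 46.3, 51.1 and 52.2 against 103, 108 and 102 CPM. Adding its counts left the log2 fold change of Eif2s3x at -1.02.

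Eif3e, for a subunit of the outer arm of eIF3, had 283, 289.9 and 285 against 279.9, 293 and 271 CPM and was not called. Its copies together were at 52.2 CPM in BRD0705/PD03 and 0.535 CPM in 2i. Added to Eif3e, they made its log2 fold change 0.26 ± 0.04 (edgeR adjusted p = 1.61e-05), where that of Eif3e alone was 0.02 ± 0.04 (0.636). The first 90 coding bases of Eif3e and the matching bases of 2 copies are shown, from GENCODE M21 on GRCm38, because their differences are what lets a read be assigned to a copy. Mismatches are denser here than over the whole match, 97 of 1329 bases in Eif3s6-ps3 and 89 of 1322 in Eif3s6-ps4. The most abundant copy, Eif3s6-ps2 (41.5 CPM in BRD0705/PD03), is not shown and is closer to Eif3e, with 36 mismatches in 1321 bases. Capitals in a copy mark its mismatches, 14 in Eif3s6-ps3 and 15 in Eif3s6-ps4, and capitals in Eif3e mark the bases at which either copy differs.
Eif3e: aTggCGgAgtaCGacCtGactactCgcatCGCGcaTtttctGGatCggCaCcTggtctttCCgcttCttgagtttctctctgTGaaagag
Eif3s6-ps3: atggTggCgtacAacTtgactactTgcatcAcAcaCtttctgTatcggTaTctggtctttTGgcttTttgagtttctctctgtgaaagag
Eif3s6-ps4: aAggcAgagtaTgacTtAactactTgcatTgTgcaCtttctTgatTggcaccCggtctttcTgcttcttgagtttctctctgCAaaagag

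**Figure D5:**
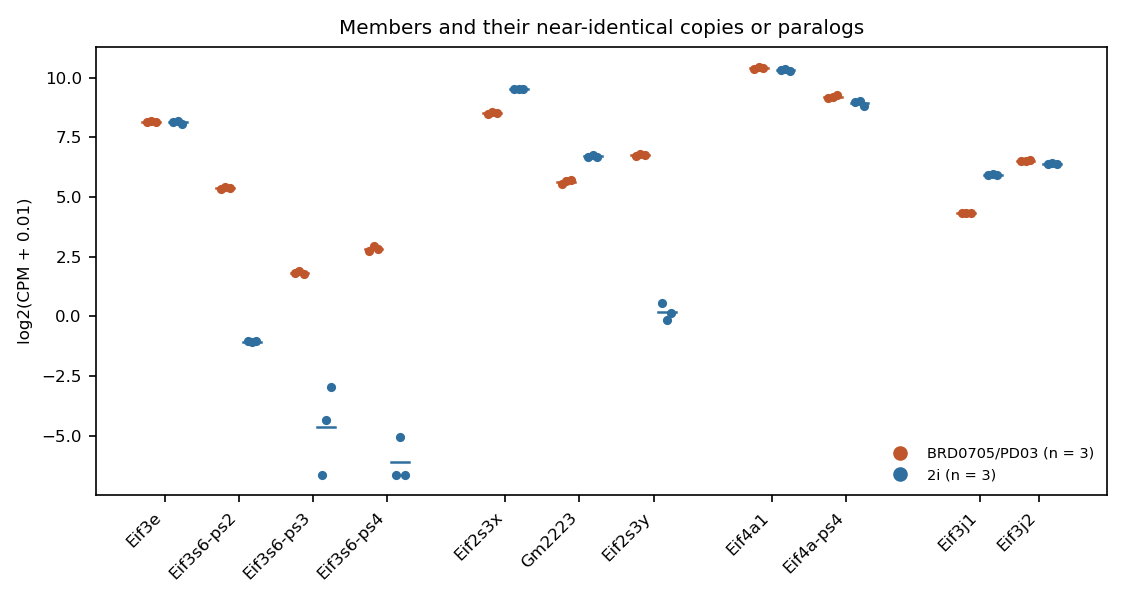
Log2 of CPM + 0.01 in each library for initiation factor genes and their near-identical copies or paralogs, with the group mean as a line. The Eif3s6 copies and Eif2s3y lie far higher in BRD0705/PD03 than in 2i, Eif3e itself is level in both groups (286 and 281 CPM), and Eif2s3x and Gm2223 are lower in BRD0705/PD03.

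Small nucleolar RNA genes lie inside several of these genes, on the same strand. Gm22988, inside Eif4a1, had 14.5, 10.1 and 10.0 CPM in BRD0705/PD03 and was near the floor in 2i, at 0, 0.539 and 0.118 CPM. It passed the filter on low counts only through BRD0705/PD03, so its call (edgeR adjusted p = 7.60e-04) adds nothing to these values. Of the other such RNA genes that passed the filter, Snora81, inside Eif4a2, had the lowest edgeR adjusted p, 0.0746.

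Other genes that act in translation or its control were examined as a list of 37, of which 11 were higher, 10 lower and 16 not called, a called share of 56.8% beside 61.4% of all genes tested. Their median log2 fold change was -0.05. The 3 that fell most were Mknk1, for a kinase of eIF4E, at 8.77 against 19.3 CPM (log2 fold change -1.14 ± 0.08), Eef2k, for the kinase that inhibits elongation factor eEF2, at 13.7 against 26.8 CPM (-0.96 ± 0.07), and the X-linked Mcts1, for a partner of Denr in reinitiation, at 22.0 against 38.0 CPM (-0.79 ± 0.06). The 3 that rose most were Rps6kb1, for the S6 kinase below mTOR, at 83.8 against 56.8 CPM (0.57 ± 0.05), Rptor, for a subunit of the mTOR complex, at 69.8 against 55.2 CPM (0.34 ± 0.04), and Dhps, for an enzyme that makes the hypusine of eIF5A, at 32.6 against 26.6 CPM (0.28 ± 0.06). Atf4, named after its values were seen and known for translation that rises when eIF2 is phosphorylated, had 467 against 427 CPM, a log2 fold change of 0.13 ± 0.04 (edgeR adjusted p = 0.0145).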

How the data were processed

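Total RNA of 6 samples labelled as mouse ESCs was sequenced, 3 in BRD0705/PD03 and 3 in 2i, with groups and replicate numbers from the sample titles. The submitters' processing notes name Salmon, without a version, and the build mm10. The deposited tables hold whole numbers for 53927 gene symbols, taken here as Salmon's estimated counts, rounded and left unscaled by the authors. Annotation, strand setting and transcript summing: not given in the sources used here. The labels name no separate cultures, so a p-value reflects only how these libraries spread, which may be technical. Chi-square per degree of freedom between libraries of a group was 2.77 to 9.84, so no library repeats another.

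The whole table was tested with edgeR 4.0.16 in R 4.3.3 (quasi-likelihood test, filterByExpr, TMM, robust estimation, group as the only term), two-sided, with Benjamini-Hochberg adjustment over 20422 genes and a threshold of 0.05. SE is the log2 fold change over the square root of F. CPM use scaled library totals, and log2 ratios a prior count of 2. The common coefficient of variation was 0.0591. The steps were tested on simulated data. The ratios were compared by an exact permutation test. Coordinates, lengths and coding sequences came from GENCODE M21 (GRCm38), matched by symbol, and copies from blastn 2.17.0 (at least 90% identity, 300 bases and 50% of the copy). Symbols matched 1 gene in 51945 cases, several in 110 and none in 1872. Promoter windows came from RefSeq on GRCm38.p6 and matched 44 of the 57 genes.

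Genes given with every library were the 5 genes that rose most and the 5 that fell most among those called at 5 CPM or more on average, the eIF2 kinases, the eIF4E-binding protein genes and the X-linked genes. Of the other translation genes, the 3 highest and 3 lowest were given as group means. Others with every library, and single pseudogenes, were named after their values were seen. The genes and lists were chosen with earlier results of these data known. Alternatives were median-ratio and upper-quartile factors, DESeq2 1.42.0, other filters, a null of 1.5-fold, a replicate block, omission of single libraries, of noncoding genes and of sex chromosome genes, another prior count or raw ratios, and another gene length. Added after the data were seen were sums with near-identical copies and with Eif2s3y.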

Additional observations from a re-analysis of the deposited data

Results flagged for a closer look

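Pseudogene rows stood outside the comparison of initiation factor genes, and 3 processed copies of Eif3e were far above their level in 2i. They were named after their values were seen, so large ratios follow from that choice, and the intervals below are no test of it. Eif3s6-ps3 and Eif3s6-ps4 passed the filter on low counts only through BRD0705/PD03. The intervals pool the libraries of a group and leave out their spread and the sharing of reads with Eif3e. Eif3s6-ps2, at chr18:90310868-90312190, had 40.3, 42.8 and 41.3 CPM in BRD0705/PD03 (mean 41.5) and 0.475, 0.459 and 0.474 CPM in 2i. From the summed counts, 4171 against 43, the level was 88.9 times that of 2i, with an exact 95% interval of 65.9 to 123 for counting error only. Its coding match to Eif3e differed at 36 of 1321 bases.

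Eif3s6-ps4, at chr6:19317215-19319378, had 6.59, 7.74 and 7.16 CPM (mean 7.16) against 0, 0.0199 and 0 CPM. With 719 counts against 1, the ratio was 659, with an interval of 118 to 26054. Eif3s6-ps3, at chr17:15845280-15846628, had 3.48, 3.70 and 3.41 CPM (mean 3.53) against 0, 0.0399 and 0.118 CPM. With 354 counts against 5, the ratio was 64.9, with an interval of 27.5 to 201. The 3 copies lie on different chromosomes and were each low in all 2i libraries, while Eif3e had 286 ± 3.52 against 281 ± 11.2 CPM (SD, n = 3 per group).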

How the results depend on the processing

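Of the 36 genes called, 29 (11 higher, 18 lower) kept their call under every planned setting that tested them except the test against a fold of 1.5. The X-linked Eif1ax and Eif2s3x, 2 of the 29, had no value in the setting without sex chromosome genes. The test against a fold of 1.5 left 2 initiation factor genes higher and 6 lower, beside 13 and 23, and of the other translation genes 0 higher and 3 lower, beside 11 and 10. Over all genes that test left 2498 higher and 2596 lower, beside 6138 and 6406. Other settings gave 12 to 19 initiation factor genes higher and 19 to 25 lower. With 1 library left out, initiation factor genes higher numbered 11 to 18 and lower 19 to 25, their median log2 fold change was -0.09 to -0.03, and other translation genes higher numbered 10 to 12 and lower 8 to 13.

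With upper-quartile factors the median log2 fold change of the initiation factor genes turned to 1.01e-05, as that of all genes rose to 0.07. Signs also turned in genes not called. With these factors the values were 1.01e-05 in Eif2b2, 0.027 in Eif2d, 0.0036 in Eif2s1, 0.018 in Eif3b, 0.026 in Eif3k and 0.038 in Eif4ebp2, and without sex chromosome genes Eif3g was at -0.0073. With 1 library left out, Eif3b ranged from -0.090 (without BRD0705/PD03 replicate 3) to 0.020 (without 2i replicate 2), Eif3g from -0.028 (2i replicate 3) to 0.059 (2i replicate 2), Eif3k from -0.085 (2i replicate 3) to 0.025 (2i replicate 2) and Eif4ebp2 from -0.075 (2i replicate 1) to 0.020 (2i replicate 2). Apart from the rise in the scaled values, the cause was not tested. Log2 ratios kept their sign under every setting.

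With the replicate number as a block, 13 initiation factor genes were higher and 22 lower, as the call of Eif1 was lost (edgeR adjusted p = 0.0523). Deviations of same-numbered libraries correlated at -0.0082, 0.034 and -0.036, so the samples share only a number and no pairing was assumed. Depth limited Eif4e3, Eif4ebp3 and the 4 genes below the filter most.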
